A study of Homo sapiens with 9 samples.

Results

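OCRL and its relatives among the phosphoinositide phosphatases were followed in PANC-1, a human cell line derived from a carcinoma of the pancreas, after transfection with a mimic of the microRNA miR-520f. The 9 listed genes were OCRL, INPP5B, INPP5A, INPP5E, INPP5K, SYNJ1, SYNJ2, INPP4B and INPPL1. A probe set carrying a single gene symbol was named for 8 of them, out of 14232 genes tested on the arrays, and INPP5K was not analysed here. Where a gene had several probe sets, the one with the highest mean over the 9 arrays was used. OCRL was chosen by its measured fall with miR-520f against both controls on these same arrays, so its differences from the controls are given as a description without a p-value. The other genes were listed by family, with earlier results of these data known.

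The first group (miR520) was transfected with a mimic of miR-520f at 20 nM. One set of controls received 20 nM of a negative control mimic (NC), and the other received the lipid transfection reagent alone and no mimic (non-transfected, NT). RNA was taken after 72 h in all 3 groups, and each group held 3 arrays described as biological replicates. All cells were of 1 line and all had been exposed to the lipid reagent. The labels do not say how the cultures were separated, and the p-values therefore reflect the variation among these arrays, which may be partly technical.

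The values were RMA log2 intensities, on which a difference of 1 is a doubling, and the number of arrays limits their precision. Array medians lay between 4.22 and 4.34, and replicates of a group correlated at 0.991 to 0.998 over genes. The array least like its group was replicate 1 of the negative control, whose genes deviated from the group mean by 0.169 (root mean square), against 0.0698 to 0.131 for the other 8 arrays. Epithelial keratins KRT8, KRT18 and KRT19 lay at or above 8.11 on every array, whereas KRT7 stayed at 3.43 to 3.56. The epithelial adhesion proteins EPCAM and CDH1 moved with the groups, EPCAM averaging 9.37 in miR520, 7.69 in NC and 7.80 in NT cells, and CDH1 6.61, 5.46 and 5.54 in the same order. Of the 17 measured markers of fibroblast, endothelial, immune, acinar and endocrine cells, 15 lay below the median gene level of 4.53. COL1A1 and CD68 did not, and CD68 averaged 7.35 in miR520, 8.25 in NC and 8.65 in NT cells while the pan-leukocyte marker PTPRC stayed between 2.88 and 3.14. Their part in the results below was not tested.

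Phosphoinositides are membrane lipids whose inositol ring carries phosphates at varied positions, and each pattern of phosphates marks a compartment and recruits its own set of proteins. Kinases add the phosphates and phosphatases remove them. OCRL, the product of the X-linked gene mutated in Lowe syndrome and in Dent disease, and its close paralog INPP5B remove the phosphate at the 5 position on clathrin-coated membranes, early endosomes and the Golgi. A microRNA recognises transcripts chiefly through its seed, bases 2 to 8, and lowers the level or the translation of the transcripts that it pairs with.

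The mature sequences of miR-520f are shown because a mimic of miR-520f is what separates the tested cells from the negative control. The labels name miR-520f without stating the arm, so both arms from RefSeq (GRCh38.p14) are given 5′ to 3′, with bases 2 to 8 in capitals. The 3p arm is annotated at chr19:53682213-53682234 and the 5p arm at chr19:53682173-53682194, both on the plus strand.

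hsa-miR-520f-3p: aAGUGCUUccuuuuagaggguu

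hsa-miR-520f-5p: cCUCUAAAgggaagcgcuuucu

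Among 2370 human mature microRNAs in the RefSeq table, the seed of the 3p arm was found at bases 2 to 8 in 1, miR-520f-3p itself. The same 7 bases stood 1 position further in, at bases 3 to 9, in 11 other microRNAs of the miR-302, miR-373 and miR-520 groups. The nearest in letters and a more distant one are shown with the shared 7 bases in capitals, so that the shift can be read against the 3p arm above. They are annotated at chr19:53707506-53707527 (plus strand) and chr4:112648186-112648208 (minus strand).

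hsa-miR-520c-3p: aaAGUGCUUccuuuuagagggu

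hsa-miR-302a-3p: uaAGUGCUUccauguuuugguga

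Transcript sequences were not used, so whether OCRL or its relatives carry a match to either seed was not tested.

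Within the family OCRL fell furthest with miR-520f. Its probe set 3990374 measured 5.92, 6.11 and 5.93 on the miR520 arrays, against 8.10, 8.13 and 8.26 on the NC arrays and 7.91, 8.09 and 7.90 on the NT arrays. All 3 miR520 arrays lay below all 6 control arrays, with a gap many times the spread within any group. The mean was 5.99 ± 0.11 in miR520, 8.16 ± 0.08 in NC and 7.96 ± 0.11 in NT cells (SD, n = 3 each). The log2 difference was -2.17 from NC (SE 0.09) and -1.98 from NT (SE 0.09), which put OCRL at 22.2% of its NC level and 25.4% of its NT level on the array scale. Ranked by the smaller of these differences, OCRL was number 9 of the 1226 genes that were lower than both controls. That rank restates the choice of the gene and supports nothing. In RNA from whole cultures, fewer cells with the transcript and less of it per cell cannot be told apart. NC and NT differed little for OCRL, with a log2 difference of 0.20 (95% confidence interval 0.01 to 0.39, limma adjusted p = 0.169).

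INPP5B, the paralog whose domains most resemble those of OCRL, did not change detectably. It measured 7.34, 7.22 and 7.62 on the miR520 arrays, against 7.44, 7.51 and 7.26 on the NC arrays and 7.43, 7.44 and 7.33 on the NT arrays. The groups overlapped completely, and the miR520 arrays spread the most. The log2 difference was -0.010 from NC (95% confidence interval -0.24 to 0.22, limma adjusted p = 0.960) and -0.0085 from NT (95% confidence interval -0.24 to 0.23, limma adjusted p = 0.976). A change beyond those intervals was not seen in either direction, whereas smaller ones could not be told from none.

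**Figure D1:**
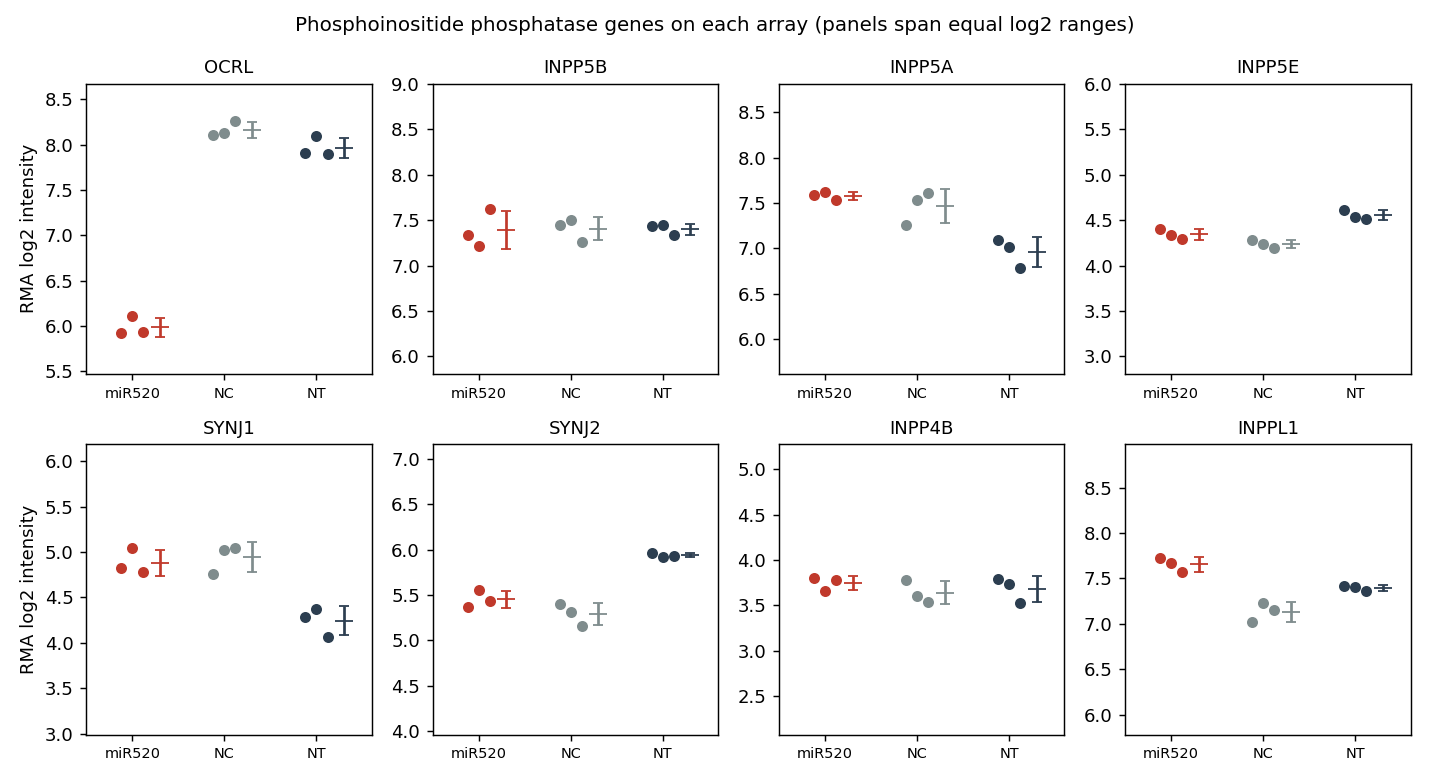
RMA log2 intensity of the 8 measured genes on each array, by group (miR520, NC, NT), with the group mean and SD to the right of each set of 3 points and equal log2 ranges in all panels. The OCRL points with miR-520f (5.92 to 6.11) stand apart from all control points (7.90 to 8.26), while INPP5A, INPP5E, SYNJ1 and SYNJ2 separate the NT arrays from both sets of mimic arrays.

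The remaining genes moved less, and mostly with either mimic. Over the 8 measured genes, 1 fell (OCRL) and 1 rose (INPPL1) against both controls in a limma fit of all genes at an adjusted p under 0.05. Over all genes, 18% passed this criterion, 8.61% lower and 9.37% higher than both controls. The same 2 genes had miR520 arrays that did not overlap the 6 control arrays, with 12.1% of all genes lying below and 13.2% lying above in this way. Of the 8 measured genes, 6 lay above the median gene level, whereas the shares over all genes include dim genes. These counts of a family listed around OCRL are a description. The median log2 difference over the 8 was 0.11 from NC and 0.03 from NT, against -0.03 and -0.03 over all genes. The comparisons with NC and NT share the miR520 arrays and are not independent of each other.

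INPPL1, which encodes SHIP2, a 5-phosphatase that acts on the lipid product of PI 3-kinase, was higher with miR-520f. Its levels were 7.73, 7.67 and 7.57 in miR520 cells, against 7.02, 7.23 and 7.15 in NC cells and 7.42, 7.40 and 7.36 in NT cells. Every miR520 array was above every control array, and the NC arrays were the lowest. It rose by 0.52 relative to NC (SE 0.08, limma adjusted p = 0.000401) and by 0.26 relative to NT (SE 0.08, limma adjusted p = 0.0263), or 1.44-fold and 1.20-fold. The difference from NT missed the threshold in 6 of 17 alternative settings (limma adjusted p up to 0.121), a further quantile normalization and the removal of replicate 1 or 2 of miR520 or replicate 2 or 3 of NT among them. INPPL1 was also lower in NC than in NT cells by a log2 difference of -0.26 (limma adjusted p = 0.0443), a call that missed the threshold in 13 of the 17 settings. Without NC replicate 1 this difference was -0.20 (limma adjusted p = 0.108), and the difference between miR520 and NC was 0.46 (limma adjusted p = 0.000947).

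The synaptojanins, which carry a 5-phosphatase and a Sac1 phosphatase domain and act in the uncoating of clathrin-coated vesicles, went opposite ways with mimic transfection. SYNJ1 measured 4.82, 5.04 and 4.78 in miR520 and 4.76, 5.03 and 5.05 in NC cells, against 4.29, 4.37 and 4.06 in NT cells. The mimic arrays overlapped each other and lay above every NT array. SYNJ1 rose relative to NT by 0.64 with miR-520f (SE 0.11, limma adjusted p = 0.00126) and by 0.70 with the negative control mimic (SE 0.11, limma adjusted p = 0.00173). Between miR520 and NC the log2 difference was -0.06 (95% confidence interval -0.31 to 0.18, limma adjusted p = 0.756).

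SYNJ2 was the mirror image. It measured 5.37, 5.55 and 5.44 in miR520 and 5.40, 5.31 and 5.16 in NC cells, against 5.96, 5.92 and 5.93 in NT cells. Relative to NT it fell by 0.48 on the log2 scale with miR-520f (SE 0.08, limma adjusted p = 0.000981) and by 0.65 with the negative control mimic (SE 0.08, limma adjusted p = 0.000415). The log2 difference of 0.16 between miR520 and NC was not called (95% confidence interval -0.02 to 0.34, limma adjusted p = 0.178), and the arrays of those groups overlapped.

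INPP5A, which dephosphorylates soluble inositol trisphosphate and so ends its calcium signal, was likewise higher with either mimic. Its levels were 7.58, 7.62 and 7.53 in miR520 and 7.25, 7.53 and 7.61 in NC cells, against 7.09, 7.01 and 6.78 in NT cells. The lowest mimic array, NC replicate 1, still exceeded the highest NT array. INPP5A rose relative to NT by 0.62 with miR-520f (SE 0.11, limma adjusted p = 0.00115) and by 0.50 with the negative control mimic (SE 0.11, limma adjusted p = 0.00872). The second of these missed the threshold in a fit without moderation of the variances (adjusted p = 0.0558). The log2 difference between miR520 and NC was 0.12 (95% confidence interval -0.12 to 0.35, limma adjusted p = 0.501), and 0.01 without NC replicate 1.

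INPP5E, the 5-phosphatase of the primary cilium that is mutated in Joubert syndrome, had an intermediate level with miR-520f. It measured 4.41, 4.33 and 4.29 in miR520 and 4.28, 4.23 and 4.19 in NC cells, against 4.62, 4.54 and 4.51 in NT cells. The 3 groups did not overlap, but the steps were small. Relative to NT its log2 difference was -0.21 in miR520 (SE 0.07, limma adjusted p = 0.0404) and -0.32 in NC (SE 0.07, limma adjusted p = 0.00919). The miR520 call missed the threshold in 11 of 17 alternative settings, where its adjusted p reached 0.131. Between miR520 and NC the log2 difference was 0.11 (95% confidence interval -0.04 to 0.26, limma adjusted p = 0.306).

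INPP4B, a 4-phosphatase of the phosphoinositides that arise downstream of PI 3-kinase, showed no detectable difference. Its brighter probe set 2787459 measured 3.80, 3.66 and 3.78 in miR520, against 3.78, 3.61 and 3.54 in NC and 3.79, 3.74 and 3.52 in NT cells. These values overlap throughout and lie toward the lower end of the scale, where RMA compresses differences. The log2 difference was 0.10 from NC and 0.06 from NT (limma adjusted p = 0.493 and 0.757). The dimmer probe set 2745466, at 2.70 to 2.79 in miR520, 2.72 to 2.98 in NC and 2.71 to 2.90 in NT cells, gave differences of -0.12 and -0.07 (limma adjusted p = 0.382 and 0.655), of opposite sign and equally uncalled.

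Against NT alone, 3 of the 8 genes were higher and 3 lower in miR520 cells, where 27.6% of all genes were called, 14.5% higher and 13.1% lower. Against NC alone, 1 was higher and 1 lower, where 28.1% of all genes were called, 15.4% higher and 12.6% lower. In NC cells 2 were higher and 3 lower than in NT cells, where 15.3% of all genes were called, 7% higher and 8.28% lower. The 5 genes called between NC and NT were INPP5A, INPP5E, SYNJ1, SYNJ2 and INPPL1. Of these, INPP5A, INPP5E, SYNJ1 and SYNJ2 were also called between miR520 and NT in the same direction, and none of those 4 was called between miR520 and NC (unadjusted limma p of 0.0692 to 0.593). These comparisons share the NT arrays, so that agreement in direction is not independent evidence.

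**Figure D2:**
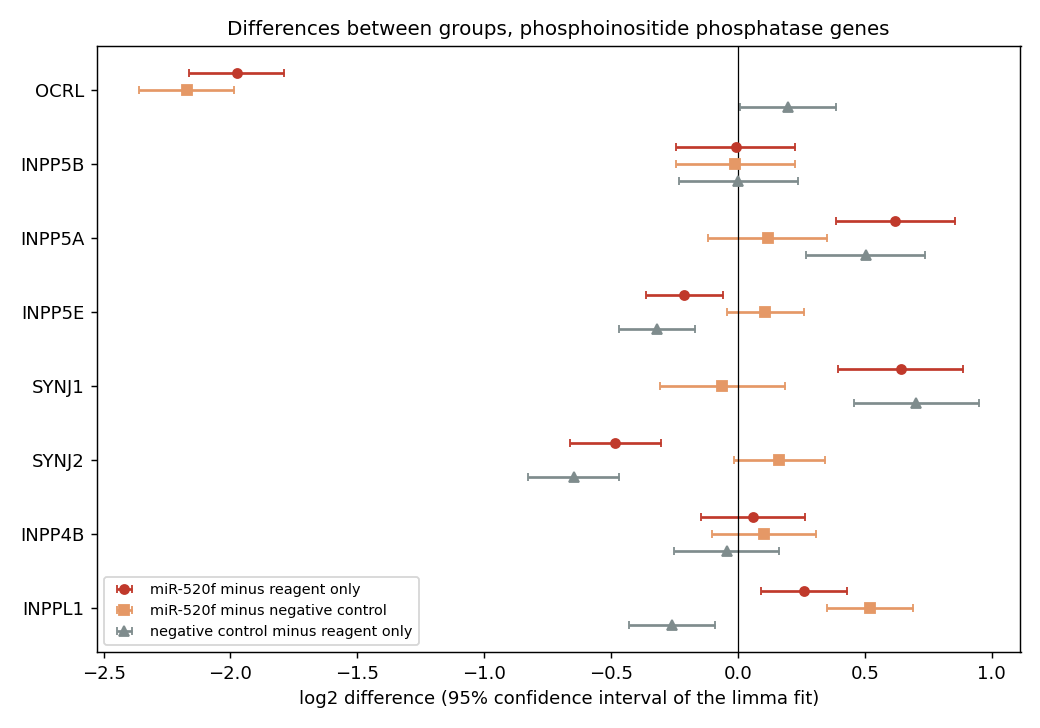
Log2 differences with 95% confidence intervals of the limma fit, for miR520 minus NT, miR520 minus NC and NC minus NT. OCRL lies near -2 in both miR-520f comparisons, INPP5B at 0 in all 3, and SYNJ1, SYNJ2, INPP5A and INPP5E at similar places for miR520 minus NT and NC minus NT.

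The 6 genes whose levels followed OCRL most closely over the 9 arrays were GLTP, AREL1, SAR1B, FBH1, MRPS35 and PAF1, with Pearson correlations of 0.997, 0.996, 0.996, 0.996, 0.995 and 0.994. They were picked as the highest among all genes tested and share with OCRL the arrays, their scaling and the large step between groups, so the coefficients are a description. GLTP, a glycolipid transfer protein, measured 3.47, 3.61 and 3.59 in miR520 cells, against 5.08, 5.10 and 5.36 in NC cells and values between 4.98 and 5.07 in NT cells. Its log2 differences were -1.62 from NC and -1.46 from NT, the order kept for all pairs of differences and p-values from here on. SAR1B, a GTPase of the COPII coat, was lower by differences of -1.72 and -1.53, and the ubiquitin ligase AREL1 by -2.11 and -1.93. MRPS35, a subunit of the mitochondrial ribosome, differed by -2.03 and -1.81, the DNA helicase FBH1 by -1.44 and -1.27, and PAF1, a subunit of the elongation complex named after it, by -0.77 and -0.67. All 6 stood slightly higher in NC than in NT cells, by 0.11 to 0.22 on the log2 scale, as did OCRL with 0.20. The NC and NT arrays were among those used to pick these genes, so this likeness comes with the choice and supports nothing. Among its own family, OCRL correlated over the 9 arrays at -0.86 with INPPL1, -0.51 with INPP5A, -0.40 with INPP4B and -0.30 with SYNJ1. With INPP5B, INPP5E and SYNJ2 the values were -0.00, 0.09 and 0.19. All carry the step between groups for which OCRL was chosen. After each group's mean was subtracted, the correlations over the same 9 arrays were 0.19 with INPPL1, 0.51 with INPP5A, -0.30 with INPP4B and 0.79 with SYNJ1. They were -0.48 with INPP5B, -0.37 with INPP5E and -0.09 with SYNJ2. So few arrays leave these values imprecise, and they were not tested.

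**Figure D3:**
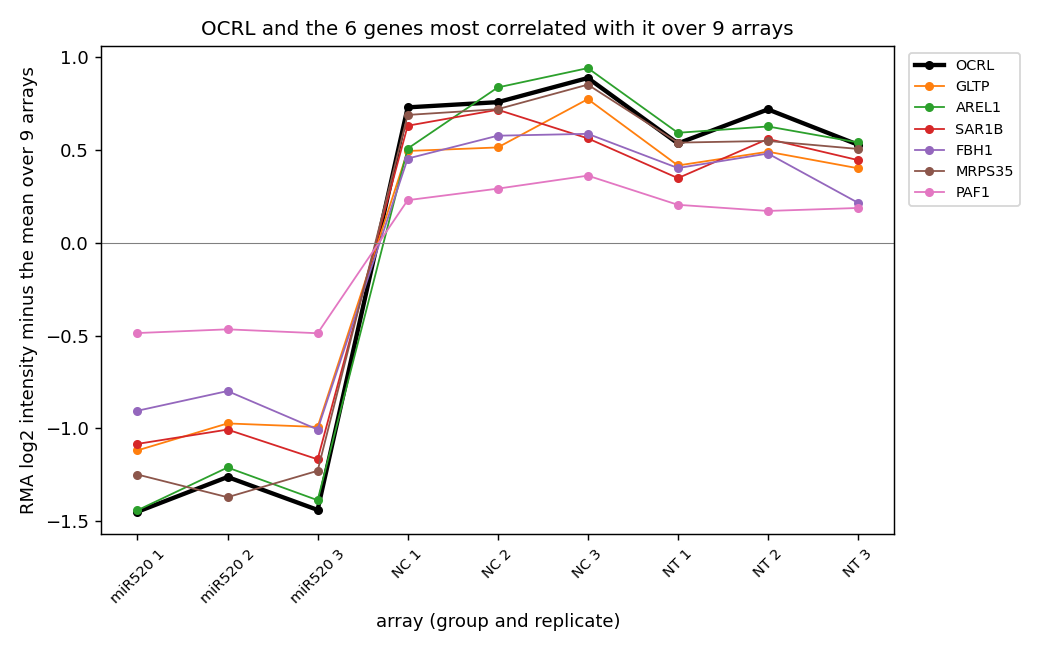
RMA log2 intensity of OCRL and the 6 genes most correlated with it, each minus its own mean over the 9 arrays, by array. Every line is low on the 3 miR520 arrays and high on the 6 control arrays, with the step smallest for PAF1 (-0.77 from NC) and near that of OCRL (-2.17 from NC) for AREL1 and MRPS35.

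The surrounding pathway was read from 8 gene lists. Among 23 measured genes listed as binding partners of OCRL and INPP5B, 3 were higher and 2 lower than both controls, where 9.37% and 8.61% of all genes were. Without miR520 replicate 1 these became 1 and 1, without NC replicate 1 the higher genes became 5, and without miR520 replicate 2 or 3 or NC replicate 3 the lower genes became 1. The counts were also 1 and 1 in a fit without moderation of the variances. APPL2, an endosomal adaptor listed with its paralog APPL1, measured 4.62, 4.67 and 4.59 in miR520 cells, against 6.84, 6.88 and 7.04 in NC and 6.50, 6.45 and 6.28 in NT cells. Whether APPL2 itself binds OCRL was not tested. The miR520 arrays were far below all control arrays. Between the controls, APPL2 was higher in NC than in NT cells, by 0.51 (limma adjusted p = 0.00191). APPL2 fell against both, with a log2 difference of -2.29 from NC (a ratio of 0.204, SE 0.08, limma adjusted p = 4.65e-08) and of -1.78 from NT (a ratio of 0.291, SE 0.08, limma adjusted p = 1.76e-07). RAB8A, a GTPase of exocytic and ciliary traffic that binds OCRL, rose by 0.51 relative to NC and 0.47 relative to NT (limma adjusted p = 0.000386 and 0.000705). RAB14 rose by 0.48 and 0.53 (limma adjusted p = 0.0189 and 0.0111), and CD2AP, an adaptor of endocytosis and actin, by 0.40 and 0.81 (limma adjusted p = 0.0254 and 0.000351). The RAB14 calls missed the threshold without moderation of the variances, and the CD2AP call against NC in 6 of 17 settings. CD2AP was also higher in NC than in NT cells, by 0.41 (limma adjusted p = 0.0356).

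Of 20 other phosphoinositide phosphatases measured, 4 were higher and 4 lower than both controls, where 9.37% and 8.61% of all genes were. SACM1L, the Sac1 phosphatase of the endoplasmic reticulum, was at 7.48, 7.32 and 7.65 in miR520 cells, against 6.80, 6.58 and 6.66 in NC and 6.81, 6.84 and 6.63 in NT cells. It rose by 0.80 and 0.72 on the log2 scale relative to NC and NT (SE 0.10 in both comparisons, limma adjusted p = 0.000128 and 0.000277). Myotubularins, a family whose active members remove the phosphate at the 3 position, were among both the genes that fell and those that rose (MTMR14 and SBF1, named after their values were seen). SBF2, a member without catalytic activity, had differences of -0.99 and -0.79 (limma adjusted p = 7.96e-05 and 0.000402), and MTMR6 of -0.63 and -0.79 (limma adjusted p = 0.00194 and 0.000484). MTMR11, also without catalytic activity, had differences of -0.62 and -0.53 (limma adjusted p = 0.0111 and 0.0252), and its call against NT was lost in 4 settings. The median log2 difference of the list was -0.10 from NC and -0.07 from NT, against -0.03 and -0.03 over all genes.

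Among 22 measured phosphoinositide kinases and subunits, 3 rose and 1 fell against both controls, where 9.37% of all genes rose and 8.61% fell. PIP4K2B, a kinase that makes phosphatidylinositol bisphosphate from the 5-phosphate form, measured 7.82, 7.91 and 7.76 in miR520 cells, against 6.30, 6.59 and 6.59 in NC and 7.27, 7.38 and 7.23 in NT cells. All miR520 arrays were the highest, but the controls also differed, with NC below NT by a log2 difference of -0.80. It rose by 1.33 relative to NC and 0.53 relative to NT (SE 0.09 in both comparisons, limma adjusted p = 2.02e-06 and 0.00124). PIP5K1C, which makes the lipid that OCRL degrades, rose by 0.58 and 0.45 (limma adjusted p = 0.000406 and 0.00229). The class II kinase PIK3C2B rose by 0.62 and 0.39 (limma adjusted p = 6.72e-05 and 0.00172) from a dim control level of 3.61 to 3.92. The class I catalytic subunit PIK3CD, also dim in the controls at 4.23 to 4.49, had differences of -0.40 and -0.36 (limma adjusted p = 0.00457 and 0.0077).

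**Figure D4:**
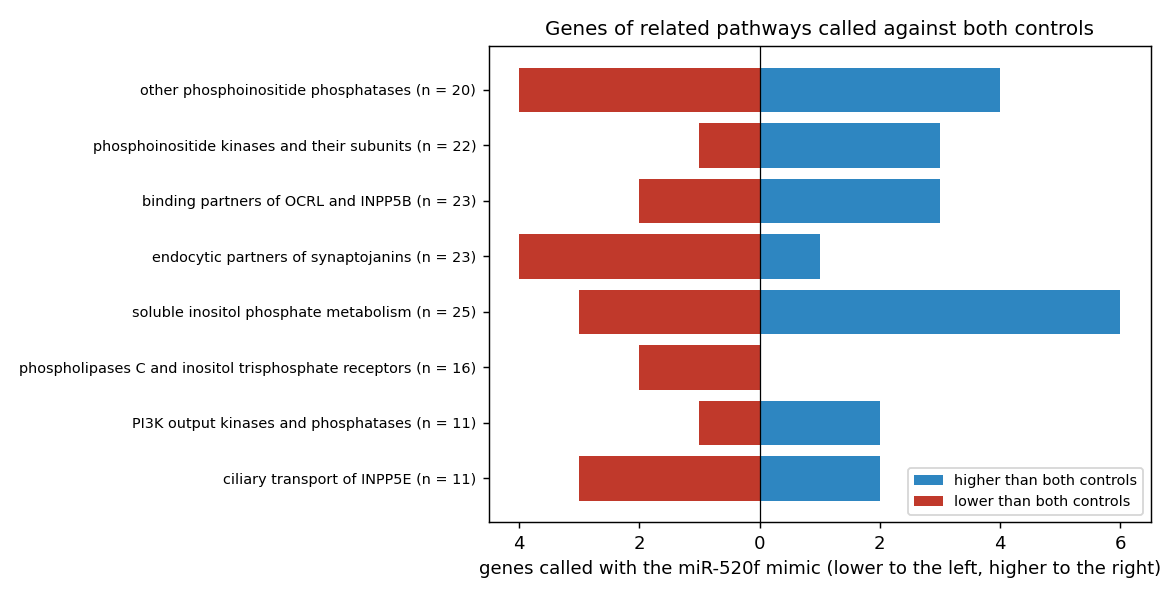
Number of measured genes in each of 8 pathway lists called lower (left) or higher (right) than both controls with miR-520f, with the number measured beside each name, so that bars are counts from lists of unequal size and not shares. In the list named soluble inositol phosphate metabolism, which also holds genes of phosphatidylinositol synthesis, 6 of 25 rose and 3 fell. Among the 20 other phosphoinositide phosphatases 4 rose and 4 fell, and among the 11 genes of the ciliary transport of INPP5E 2 rose and 3 fell. Over all genes, 9.37% were higher and 8.61% lower than both controls.

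Of 23 measured endocytic partners of synaptojanins, 1 rose and 4 fell against both controls, the falls becoming 1 without miR520 replicate 1 and 2 without miR520 replicate 3, NC replicate 2, NT replicate 1 or NT replicate 3. The falls also became 1 in a fit without moderation of the variances and 2 with a robust limma-trend fit. Over all genes 9.37% rose and 8.61% fell. DNM1, a dynamin that pinches off vesicles, measured 4.56, 4.56 and 4.61 in miR520, against 4.93, 5.18 and 5.09 in NC and 5.56, 5.53 and 5.45 in NT cells. Its differences were -0.49 and -0.94 (limma adjusted p = 0.000642 and 7.36e-06). DNM1 was also lower in NC than in NT cells, by a log2 difference of -0.45 (limma adjusted p = 0.00296). BIN1, a membrane-bending amphiphysin, had differences of -0.50 and -0.35 (limma adjusted p = 0.00396 and 0.0269), the call against NT being lost in 5 settings. ITSN2, a scaffold of coated pits, rose by 0.33 and 0.55 (limma adjusted p = 0.0101 and 0.000406). PICALM, a clathrin adaptor, had differences of -0.94 and -1.27 (SE 0.27 in both comparisons, limma adjusted p = 0.0230 and 0.00440), and its NC replicate 1 at 7.86 lay within the miR520 range of 7.40 to 7.91 while the other 2 NC arrays were at 8.91 and 9.18. Its call against NC was lost in 6 settings, including without NC replicate 2 (-0.81) or 3 (-0.67).

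The list named soluble inositol phosphate metabolism also held genes that make or carry the lipid phosphatidylinositol, CDIPT and CDS2 among them. Of its 25 measured genes, 6 rose and 3 fell against both controls, where 9.37% of all genes rose and 8.61% fell. IMPA2, an inositol monophosphatase that returns free inositol, was at 6.39, 6.33 and 6.29 in miR520, against 5.03, 5.02 and 5.05 in NC and 5.75, 5.57 and 5.46 in NT cells. It rose by 1.30 and 0.74 relative to NC and NT (SE 0.08 in both comparisons, limma adjusted p = 8.28e-07 and 4.70e-05). IMPA2 was lower in NC than in NT cells, by a log2 difference of -0.56 (limma adjusted p = 0.000958). CDIPT, the enzyme that makes phosphatidylinositol from inositol, rose by 0.94 and 0.55 (limma adjusted p = 3.04e-06 and 0.000139). Its NC level was itself below its NT level, by a log2 difference of -0.39 (limma adjusted p = 0.00331). CDS2, which supplies the other substrate of CDIPT, rose by 0.65 and 0.49 (limma adjusted p = 0.00051 and 0.00336). MINPP1, a phosphatase of highly phosphorylated inositols, rose by 0.62 and 0.59 (limma adjusted p = 0.000557 and 0.000768). IMPA2, CDIPT, CDS2 and MINPP1 were picked among the called genes by the smaller of each gene's differences from NC and NT. The 3 genes of the list that fell were not among them and are not named here. Whether the genes that rose did so together was not tested. The list's median log2 difference was 0.04 from NC and -0.04 from NT, against -0.03 and -0.03 over all genes, and 16 of the 25 were not called against both controls.

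Of 16 measured phospholipases C and inositol trisphosphate receptors, 0 rose and 2 fell against both controls by limma, where 9.37% of all genes rose and 8.61% fell. In the separate comparisons 1 of the 16 was higher and 3 were lower than NC, where 15.4% and 12.6% of all genes were, and 0 were higher and 5 lower than NT, where 14.5% and 13.1% of all genes were. The type 3 receptor ITPR3, a calcium channel of the endoplasmic reticulum, measured 6.07, 6.21 and 6.06 in miR520 cells, against 7.81, 7.78 and 7.50 in NC and 8.19, 7.88 and 7.73 in NT cells. No miR520 array came near a control array. ITPR3 fell, with log2 differences of -1.58 from NC and -1.82 from NT (SE 0.12 in both, limma adjusted p = 4.08e-06 and 1.61e-06). PLCH2, a phospholipase C of the eta class, had differences of -0.79 and -0.91 (limma adjusted p = 9.13e-05 and 3.32e-05).

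Among 11 measured kinases, phosphatases and factors downstream of PI 3-kinase, 2 rose and 1 fell against both controls, where 9.37% of all genes rose and 8.61% fell. SGK1, a kinase related to AKT, rose by 0.99 and 0.93 (limma adjusted p = 0.000342 and 0.000552), and PHLPP1, a phosphatase of AKT, rose by 0.47 and 0.52 (limma adjusted p = 0.000223 and 0.000103). Both rose from dim control levels below the median gene level of 4.53, at 3.39 to 3.92 for SGK1 and 3.44 to 3.57 for PHLPP1. AKT1 had differences of -0.36 and -0.69 (limma adjusted p = 0.00383 and 4.82e-05). It measured 8.55, 8.51 and 8.55 in miR520 against 8.82, 9.00 and 8.87 in NC and 9.33, 9.21 and 9.15 in NT cells. AKT1 was also lower in NC than in NT cells, by a log2 difference of -0.33 (limma adjusted p = 0.0122). Of 11 measured genes of the ciliary transport of INPP5E, 2 rose and 3 fell, against the same 9.37% and 8.61% of all genes, and the rises became 1 when any of the miR520 replicates, NC replicate 2, NT replicate 1 or NT replicate 3 was left out. The rises also became 1 after a further quantile normalization and with a robust limma-trend fit. AURKA, a mitotic kinase that also drives disassembly of the cilium, rose by 0.80 and 1.17 (limma adjusted p = 9.86e-05 and 7.06e-06). RPGR (differences of -0.72 and -0.55), CEP164 (-0.55 and -0.33) and IFT88 (-0.51 and -0.26), all proteins of the cilium or its base, were lower than both controls, and the IFT88 call against NT (limma adjusted p = 0.0238) was lost in 6 settings, median centring of the arrays among them. AURKA and IFT88 were also higher in NC than in NT cells, by 0.37 and 0.25 (limma adjusted p = 0.0237 and 0.0481).

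**Figure D5:**
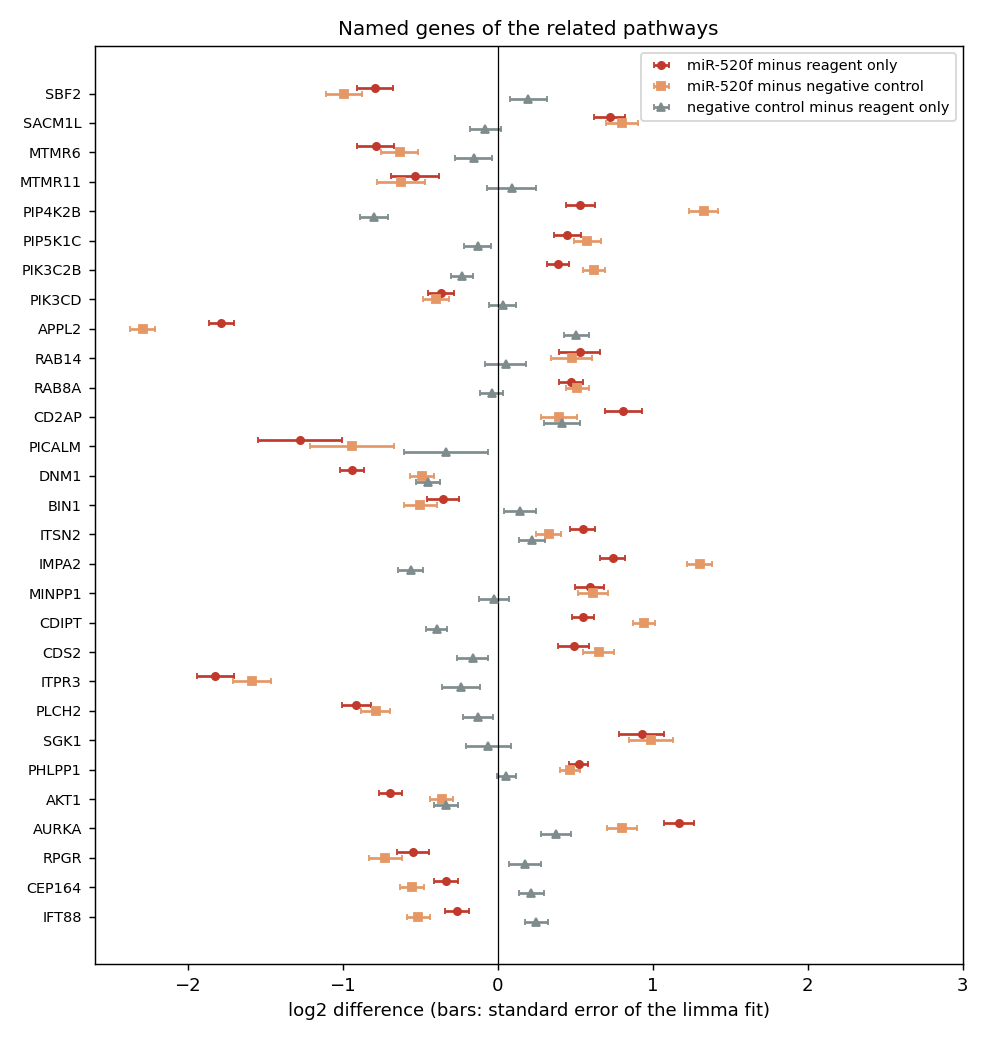
Log2 differences with standard errors of the limma fit for the named genes of the 8 lists, for miR520 minus NT, miR520 minus NC and NC minus NT. APPL2 and ITPR3 lie farthest to the left, and PIP4K2B and IMPA2 farthest to the right for miR520 minus NC.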

How the data were processed

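Per the labels, total RNA of PANC-1 cells was extracted with TRIzol and labelled with biotin for Affymetrix arrays. The authors deposited log2 values of 22011 probe sets on 9 arrays. Partek 6.6, RMA and build hg18 are named in the submitters' processing notes, without settings. Probe sets were named through the platform annotation: 14432 had 1 symbol, 2408 several and 5171 none. Entrez identifiers matched 14404 of the first in a GRCh38.p14 gene table, with 0 symbols changed. The brightest probe set of each of 14232 genes was tested, without a filter on low values, which all 8 measured genes of the family would have passed at the lower quartile.

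A limma fit (limma 3.58.1, R 4.3.3) used 1 mean per group over 9 arrays (6 residual degrees of freedom) and Benjamini-Hochberg adjustment over all genes. Groups were taken from the sample titles. Members, lists and tests were chosen with earlier results of these data known. Named list genes were up to 4 per list called against both controls, by the smaller absolute difference. In data simulated with 14232 genes, the miR520 comparisons with both controls recovered 52.2% of changes of 0.5 (67 genes), 92.5% of changes of 1 (67 genes) and 98.5% of changes of 2 (66 genes), with 0 false calls. The simulated noise was normal and independent between genes, NC and NT shared 1 mean per gene, and no other genes changed. In the data, 15.3% of genes were called between NC and NT and 18% against both controls. These rates therefore describe the simulation and not the error rates on these arrays. Alternatives changed the normalization, the filter, the test, the arrays, the probe set rule and the replicate block.

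Same-numbered replicates deviated from their group means with correlations of -0.026 to 0.205. Arrays of different number were not compared, so this range does not settle whether the numbers pair the samples. The main fit did not pair them. It called 3927 genes for miR520 minus NT, 3996 for miR520 minus NC and 2174 for NC minus NT. With the replicate block these became 4060, 4159 and 2297.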

Additional observations from a re-analysis of the deposited data

How the results depend on the processing

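Under 17 alternative settings, 9 of which left out 1 array, OCRL stayed lower than both controls. Its log2 differences were -2.23 to -2.12 from NC and -2.04 to -1.91 from NT. These settings reuse the arrays on which OCRL was chosen for its fall, so the ranges are a description. The number of family genes called against both controls was 2 and became 1 when INPPL1 was lost, after a further quantile normalization (0.18, adjusted p = 0.0858, from NT) and with a robust limma-trend fit, and ranged from 1 to 2 over the removal of single arrays. The 2174 genes called between NC and NT became 1287 without moderation of the variances and 1394 to 2181 without single arrays, the lowest without NT replicate 2. With the replicate block, 2 family genes and 2693 genes in all were called against both controls, and INPPL1 missed the threshold between NC and NT (adjusted p = 0.0594). Of the counts of list genes higher or lower than both controls, 245 stayed within 1.5 times and 27 did not, the kinases that fell among them (1, and 2 after quantile normalization, with the replicate block and without miR520 replicate 3). The listed partners of OCRL and INPP5B that fell numbered 2, and 1 with median centring or without moderation of the variances. Uncalled differences near 0 changed sign. For INPP5B these were 0.057 (miR520 minus NT) and 0.013 (miR520 minus NC) with median centring and -0.023 (NC minus NT) after quantile normalization. For INPP4B they were -0.0066 and -0.0064 (miR520 minus NT and minus NC) with the mean of its probe sets. Over the removal of single arrays, INPP5B ranged from -0.12 to 0.078 (miR520 minus NT), -0.13 to 0.076 (miR520 minus NC) and -0.050 to 0.072 (NC minus NT), and INPP4B from -0.022 to 0.11 (miR520 minus NT) and -0.13 to 0.0088 (NC minus NT). The cause of these changes was not tested. The median difference of all genes moved by less than 0.1 under each scaling. Signal over background was not used here, so dim genes such as INPP4B are limited by an unknown floor.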
